A study of Mus musculus with 1279 samples.

Results

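The transcription factors Tcf21, Wt1, Tbx18, Tbx20, Gata4, Gata6, Hand2, Meox1, Mef2c and Isl1 were followed through the stromal cells of the adult mouse heart. They were chosen by name as factors of the cardiac and epicardial lineages, and their 10 rows were taken from 46517 genes with a row in the heart count table. All 10 were present. The cells were 1279 single cells sequenced with Smart-seq2, a plate-based method that reads full-length cDNA and carries no molecular identifiers. The authors had given each cell a cluster number, and their text places clusters 1 to 5, with 926 cells, among the fibroblasts. Clusters 6 to 8, with 353 cells, were taken here as mural cells, the smooth muscle cells and pericytes that surround vessels.

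The mice were males of 10 to 20 weeks, and all strains had been backcrossed to C57Bl6/J. C57BL6 mice (45.4% of the cells) carried no reporter to sort on. The study's methods name antibodies against PDGF receptor alpha or beta beside the reporters, and which of them served which C57BL6 plate was not given in the sources used here. PdgfrbGFP mice (28.5%) carried a GFP transgene under regulatory sequences of Pdgfrb. Cspg4dsRED mice (12.7%) carried a dsRED transgene under those of Cspg4. Acta2GFP mice (13.4%) carried a GFP transgene under those of Acta2, and elastase was added when their hearts were dissociated. Cells positive for the endothelial protein CD31 were left out of every sort, so each transgene or epitope decided which cells could enter. The labels name no animal and the number of mice per strain was not given in the sources used here. Strains are different animals, so the strain served as the replicate, and strain, sort and dissociation cannot be told apart. Each reporter strain came from 1 plate. C57BL6 came from 3 plates, and all of its mural cells but only 53.7% of its fibroblasts came from 1 and the same plate. Median total counts per cell ran from 245768 to 301141 over the strains.

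In the embryo the epicardium, the outer cell layer of the heart, sends cells inward that become fibroblasts and mural cells, and the endocardial cushions give rise to valve cells. Wt1, Tbx18 and Tcf21 are known from the epicardium and its descendants, Tcf21 in particular from fibroblasts. Gata4, Gata6, Hand2, Tbx20, Isl1 and Mef2c belong to the set of factors that pattern the heart fields and are best known from heart muscle development. Meox1 is a homeobox factor of the embryonic somites that is also known from activated fibroblasts.

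Clusters 1 to 5, 7 and 8 carried the markers of the cells they were taken for, and cluster 6 was mixed. The summed level of 5 fibroblast markers (Pdgfra, Col1a1, Col1a2, Dcn, Lum) had a mean over strains of 11878 to 14070 counts per 1000000 (CPM) in clusters 1 to 5, against 546 in cluster 7 and 1716 in cluster 8. Cluster 7 was led by smooth muscle markers (12725 CPM) and cluster 8 by pericyte markers (17298 CPM). Cluster 1 stood apart in valve markers (7001 CPM, against 165.6 to 534 in clusters 2 to 5). Clusters 6 to 8 had been taken as mural cells from their markers, so their marker levels describe that choice and do not test it. The valve markers are genes that the paper reported for its likely valve cells in these same data. The valve marker level of cluster 1 is therefore no independent evidence of what its cells are. Cluster 6 held smooth muscle markers at 11450 CPM together with fibroblast markers at 6274 CPM, which were above its 5 general mural markers (mean 1693 CPM) in all 3 strains. The 3 cells of cluster 6 from C57BL6 had 12491 CPM of fibroblast markers and 781 CPM of mural markers, so the results they bear on most are also given without them or without that strain. Of the mesothelial markers of the adult epicardium, 6 were in the table, and all cells together held 3 counts of them, with 3 of the 6 genes at 0. No cluster held more than 0.0836 CPM of them.

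For 6 of the 10 factors a RefSeq start site window was at hand, 8 windows in all because Mef2c had several starts. The 250 bases before the start are shown for the fibroblast factor Tcf21, for Hand2, whose start is overlapped by an antisense transcript, and for Mef2c, the factor of the mural side. They are on GRCm38.p6, 5′ to 3′ along the gene, and capitals mark GATAA or its reverse complement TTATC, the core motif bound by GATA factors.
Tcf21, chr10:22820144-22820393, minus strand: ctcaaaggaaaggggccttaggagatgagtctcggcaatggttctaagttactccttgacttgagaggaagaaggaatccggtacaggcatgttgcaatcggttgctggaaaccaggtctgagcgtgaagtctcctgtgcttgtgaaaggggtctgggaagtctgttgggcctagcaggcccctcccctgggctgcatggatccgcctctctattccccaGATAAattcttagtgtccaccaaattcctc
Hand2, chr8:57320733-57320982, plus strand: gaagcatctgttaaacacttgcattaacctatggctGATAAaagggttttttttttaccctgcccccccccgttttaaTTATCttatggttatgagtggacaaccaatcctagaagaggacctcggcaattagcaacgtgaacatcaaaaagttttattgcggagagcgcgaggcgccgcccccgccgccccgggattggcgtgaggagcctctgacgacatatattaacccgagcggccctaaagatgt
Mef2c, chr13:83523406-83523655, plus strand, inside the gene: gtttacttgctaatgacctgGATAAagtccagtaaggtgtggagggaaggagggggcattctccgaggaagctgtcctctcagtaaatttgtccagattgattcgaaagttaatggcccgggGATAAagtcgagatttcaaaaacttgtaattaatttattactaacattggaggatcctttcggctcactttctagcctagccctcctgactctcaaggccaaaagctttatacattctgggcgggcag
The Tcf21 window held 1 match, which began 30 bases before the RefSeq start, and the windows of Hand2 and Mef2c held 2 each. The GENCODE gene of Tcf21 starts further upstream, at 22820174, so the match lies within that gene. The Mef2c window was shown because the other 2 starts of the gene had no match. Of 32851 windows of the same length, 22.6% held a match, so a match in one of them is a description of the letters and not a site. The Tbx20 and Tbx18 windows held none, and the Isl1 window held 1. The T-box motif GGTGTGA, searched on both strands, was in 3.33% of all windows and in none of the 8.

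Among the fibroblasts, Meox1 and Tcf21 were the most abundant of the factors per length of transcript. Mean levels over the 4 strains, in CPM per kilobase of annotated exon, were 152.03 ± 32.97 (SD, n = 4 here and below unless stated) for Meox1 and 146.5 ± 43.7 for Tcf21. Gata4 followed at 42.7 ± 16.4 CPM per kilobase, then Hand2 at 21.1 ± 3.60 and Tbx20 at 16.9 ± 8.23. Gata6 stood at 7.91 ± 3.35 CPM per kilobase, Tbx18 at 5.21 ± 3.10 and Mef2c at 3.59 ± 1.10. In the mural cells the order was another one, with Tcf21 at 55.4 ± 29.2 CPM per kilobase, Gata4 at 31.99 ± 8.37 and Mef2c at 25.6 ± 1.09. Tbx18 stood there at 10.1 ± 2.20 CPM per kilobase, and the remaining tested factors lay at or below 5.70. Wt1 and Isl1 were close to 0 on both sides.

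**Figure D1:**
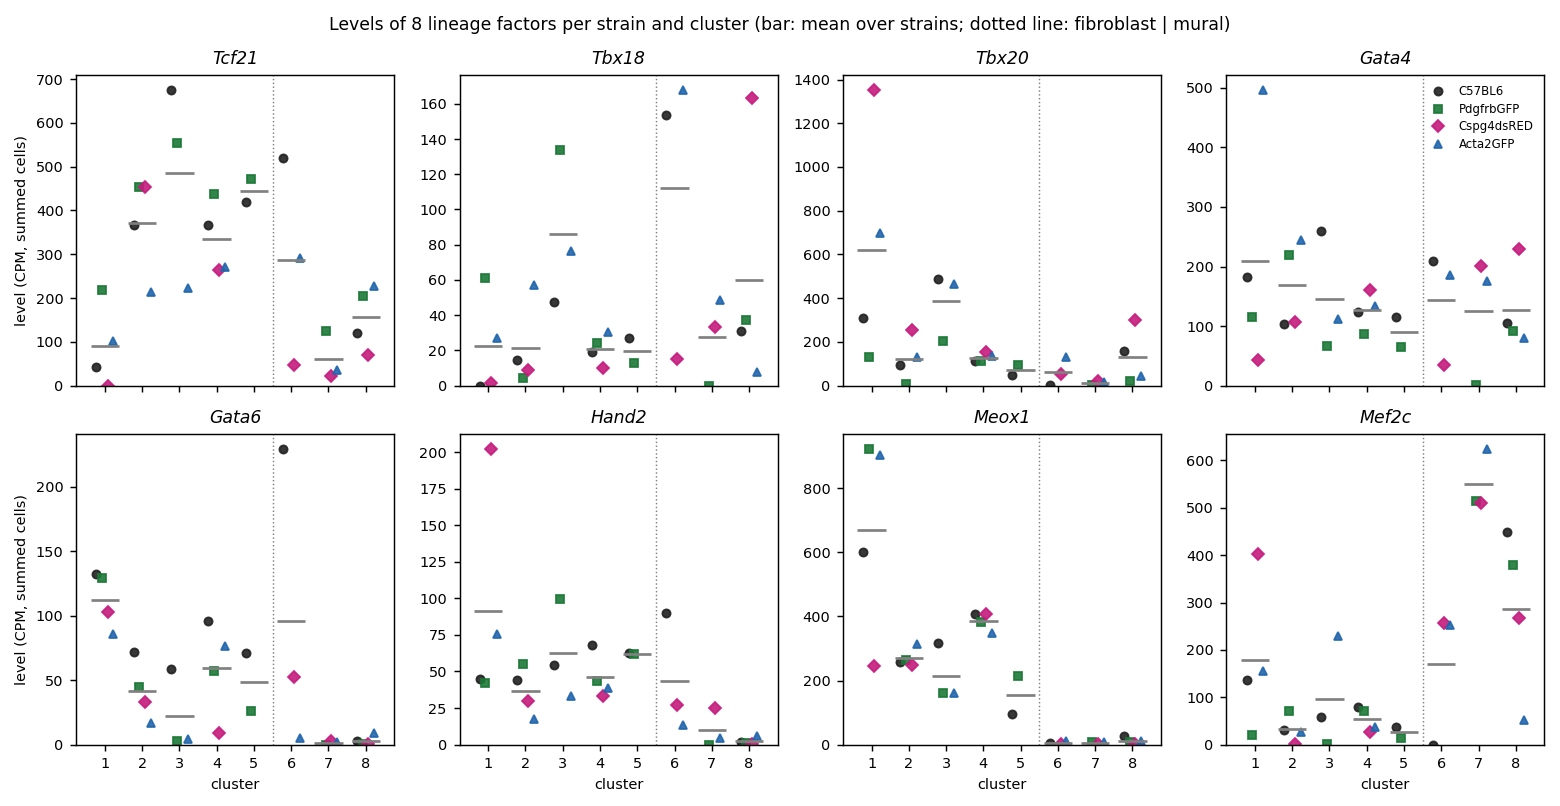
Level of 8 factors (CPM of the summed cells, linear axis from 0, a separate scale for each gene) by cluster, for each strain with 3 or more cells in the cluster, with a bar at the mean over strains and a dotted line between fibroblast clusters 1 to 5 and mural clusters 6 to 8. Meox1 was near 0 in clusters 6 to 8 in every strain shown, Mef2c was highest in cluster 7, and Tcf21 was lower in cluster 1 than in clusters 2 to 5.

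The question of the main comparison was which of the factors separate fibroblasts from mural cells. Counts were summed per strain and side and tested with the edgeR quasi-likelihood F test, with Benjamini-Hochberg adjustment over all 15117 genes that passed the filter on low counts. Of the 10 factors 8 passed the filter, and Wt1 and Isl1 did not. The test called 2 of the 8, Meox1 higher and Mef2c lower in fibroblasts, where it called 5.93% of all genes tested. The median log2 fold change was 1.46 over the 8 factors tested and -0.02 over all genes tested. The authors' clusters were made from the same counts, so the p-values are not independent of the clustering. In summed cells, fewer cells with a transcript and less transcript per cell cannot be told apart, and shares of cells are given further on.

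Meox1 stood at 270.5, 347, 299 and 438 CPM in the fibroblasts of C57BL6, PdgfrbGFP, Cspg4dsRED and Acta2GFP, and in the mural cells of the same strains at 22.8, 7.87, 0.622 and 9.02 CPM. Every strain was far higher in fibroblasts and the ranges did not overlap. The summed level of 7 endothelial markers was also higher in the fibroblasts of every strain, at 111.4 to 320 CPM against 4.40 to 41.7 CPM in mural cells, and their part in the results of this comparison was not tested. Meox1 lies on the minus strand of chromosome 11, 101877510 to 101894374 on GRCm38 (ENSMUSG00000001493). It was higher by 5.07 on the log2 scale (SE 0.85, adjusted p = 0.00715). Without PdgfrbGFP the adjusted p was 0.0590 and without Acta2GFP 0.0585, at fold changes of 4.90 and 4.89. Its paralog Meox2, a regulator of vessel and muscle development, had a log2 fold change of -0.60 (SE 0.63, adjusted p = 0.742).

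Mef2c, a MADS-box factor of muscle genes on chromosome 13 (83504034 to 83667080, plus strand, ENSMUSG00000005583), was the mirror image. Its fibroblast levels were 53.4, 41.4, 49.8 and 81.3 CPM in the strains as listed for Meox1. Its mural levels were 426, 392, 387 and 404 CPM in the same order. The strains lay close together on both sides and the ranges did not overlap. The log2 fold change was -2.86 (SE 0.27, adjusted p = 0.000419), and Mef2c was called under each of the 13 alternative settings run. Cardiac muscle markers also differed between the sides: the summed level of 9 such markers ran from 309.6 to 1024 CPM in mural cells and from 23.6 to 102.3 CPM in fibroblasts. Pln had the highest level of the 9, at 1079.6 CPM over all cells of cluster 7, where Myh6 was at 20.2 CPM. The sum thus depended much on a single gene. The part of these markers in the Mef2c result was not tested.

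Tcf21, a basic helix-loop-helix factor on chromosome 10 (22817281 to 22820174, minus strand, ENSMUSG00000045680), was higher in fibroblasts in 4 of 4 strains and was present on both sides. With the strains again in that order, fibroblast levels were 417, 433, 316 and 211.3 CPM. Mural levels were 164.001, 196.8, 38.5 and 121.5 CPM. The lowest fibroblast level was just above the highest mural level, but the fold change of 1.38 (log2, SE 0.49) had an adjusted p of 0.158 in edgeR, and 0.0306 in limma with every cell weighted equally. The mural level was 12.2% to 57.5% of the fibroblast level of the same strain. For the summed fibroblast markers that percentage was 9.41% to 19.5%, and for Meox1 it was 0.208% to 8.43%. The part of fibroblast RNA in the mural Tcf21 counts was not tested.

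Hand2, a basic helix-loop-helix factor of the heart fields, was at 57.8, 54.6, 47.002 and 38.8 CPM in the fibroblasts of C57BL6, PdgfrbGFP, Cspg4dsRED and Acta2GFP. It was at 12.3, 0.777, 20.8 and 5.85 CPM in the mural cells. The ranges did not overlap, and the log2 fold change of 2.35 (SE 0.81) missed the threshold (adjusted p = 0.143), while DESeq2 gave 0.0239 and limma 0.0339, where these called 12.7% and 9.22% of all genes. Without the 3 C57BL6 cells of cluster 6 its C57BL6 mural level was 1.84 CPM and the log2 fold change 2.79 (adjusted p = 0.125). In all, 3 of the 8 factors tested (Tcf21, Hand2, Meox1) had a fibroblast range wholly above the mural range and 1 (Mef2c) wholly below, which held for 9.04% and 5.63% of all genes tested.

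Gata6, a zinc finger factor of the heart and of vascular smooth muscle, was at 78.3, 48.96, 25.1 and 53.5 CPM in the fibroblasts of the strains in the same order. In the mural cells it was at 29.5, 0.534, 17.7 and 4.24 CPM. The log2 fold change was 2.02 (SE 0.95, adjusted p = 0.322). Cluster 6 held 814 of its mural counts, against 73 in cluster 7 and 92 in cluster 8. Without cluster 6, a setting chosen after seeing the data, the mural levels were 2.76, 0.534, 2.28 and 4.13 CPM. Leaving out the cluster with most of the counts was bound to raise the fold change. The log2 value was then 4.43 and passed the edgeR test (adjusted p = 0.00679), which called 1128 of 14647 genes. Without the 3 C57BL6 cells of cluster 6 alone, also chosen after seeing the data, the log2 fold change was 3.06 (adjusted p = 0.0982). Gata4, its paralog, was at 138.4, 109.03, 162.1 and 256.8 CPM in fibroblasts and at 115.01, 83.3, 155.7 and 145.5 CPM in mural cells. The sides overlapped, although fibroblasts were higher in 4 of 4 strains, as they were for Gata6. The log2 fold change of Gata4 was 0.39 (SE 0.31, adjusted p = 0.634).

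Tbx20, a T-box factor of heart muscle and valves, was at 151.002, 88.9, 276.1 and 294 CPM in the fibroblasts and at 134.9, 20.0, 84.1 and 34.4 CPM in the mural cells of C57BL6, PdgfrbGFP, Cspg4dsRED and Acta2GFP. It was higher in fibroblasts in 4 of 4 strains, but by little in C57BL6, where without the 3 cells of cluster 6 the mural level was 152.8 CPM, just above the fibroblasts. Fibroblasts of that strain were at 178.2 CPM on the plate that held the mural cells and at 109.6 on another. The fold change of 1.55 (log2, SE 0.58) was not called (adjusted p = 0.183). Tbx18, widely used to mark epicardial and mural lineages, went the other way in 4 of 4 strains. It was at 23.8, 22.97, 7.96 and 43.6 CPM in fibroblasts and at 58.03, 33.8, 52.2 and 46.2 CPM in mural cells. The log2 fold change was -0.96 (SE 0.53, adjusted p = 0.432), and the sides overlapped because of the Acta2GFP fibroblasts.

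**Figure D2:**
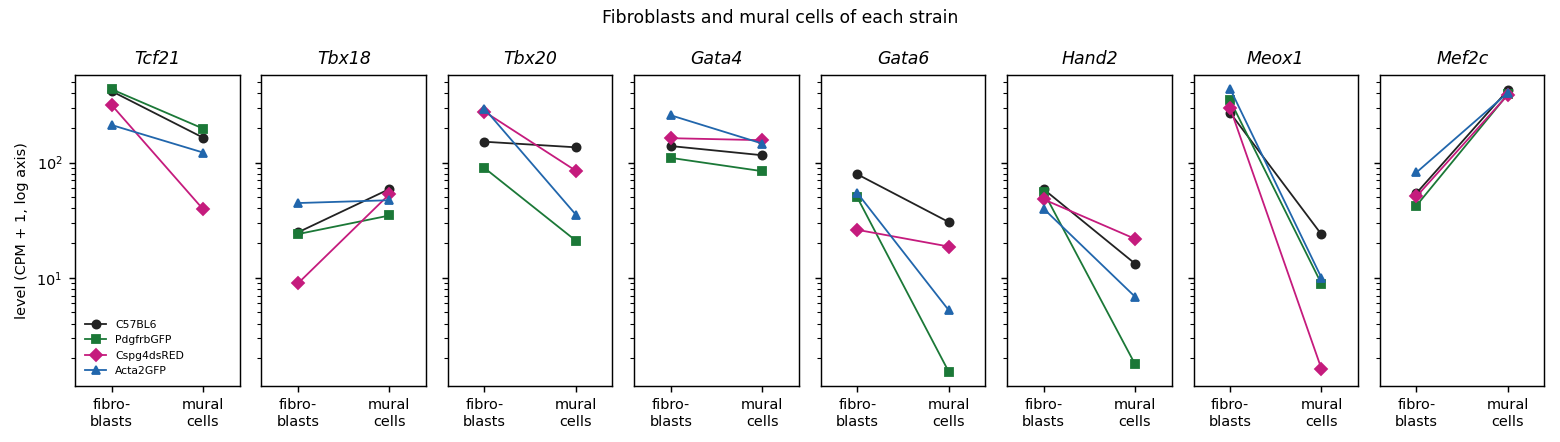
Level of 8 factors (CPM + 1, log axis) in the fibroblasts and the mural cells of each of the 4 strains, with a line joining the sides of a strain. All lines of Meox1 fell steeply from fibroblasts to mural cells, all lines of Mef2c rose, and those of Gata4 and Tbx18 were nearly level in some strains.

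A list of 25 other cardiac and epicardial factors was set beside them, and 20 passed the filter. The test called 7, with 1 higher (3.47% of all genes) and 6 lower in fibroblasts (2.45% of all genes). Sox9, a factor of cartilage and valve cells, was higher by 4.19 on the log2 scale (SE 0.91, adjusted p = 0.0238). Of those higher in mural cells, Tcf15, a basic helix-loop-helix factor of the paraxial mesoderm, differed most, at -8.50 (SE 0.82, adjusted p = 0.000419). Its mural levels of 26.3 to 191.6 CPM stood against 0.190 to 0.345 CPM in fibroblasts. Myocd, the smooth muscle coactivator of Srf, was at -4.90 (SE 1.26, adjusted p = 0.0476) and Tbx2, a T-box repressor, at -4.85 (SE 0.76, adjusted p = 0.00503). Tbx3, Nr2f2 and Mef2a were the other 3. Of 13 other settings, Tcf15 and Tbx2 passed in all, Tbx3 and Nr2f2 in 11, Sox9 in 10, Mef2a in 9 and Myocd in 7, with an adjusted p of up to 0.183 in the rest. Without C57BL6 the adjusted p was 0.0631 for Tbx3, 0.0758 for Mef2a, 0.108 for Myocd and 0.130 for Sox9.

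**Figure D3:**
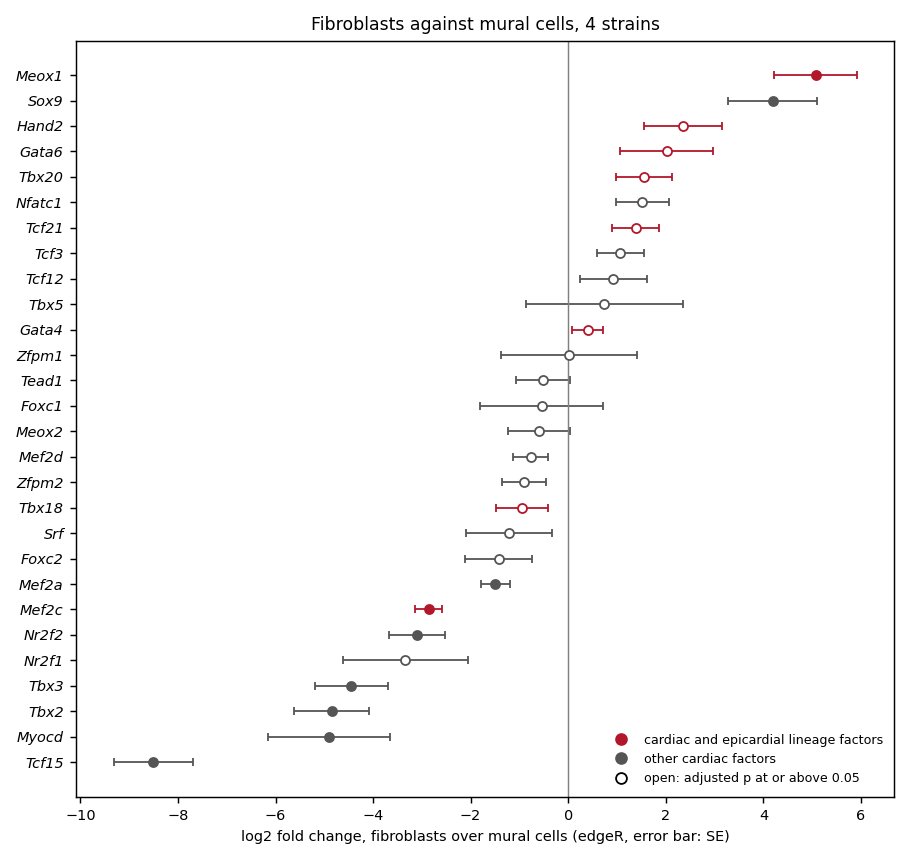
Log2 fold change of fibroblasts over mural cells with its SE (edgeR, 4 strains) for the 8 lineage factors tested (red) and 20 other cardiac factors (grey), where filled points had an adjusted p under 0.05. Meox1 and Sox9 were the filled points on the right, and Mef2c lay among the 7 filled points on the left.

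In single cells, Tcf21 was the factor most often found in fibroblasts. A level of 10 counts or more was used as the mark of detection, since single counts of Tcf21 and Meox1 were also spread over mural cells. Tcf21 reached it in 70.5% of fibroblasts and 17.8% of mural cells, at median total counts per cell of 300090 and 208557. Thinned to 50000 counts per cell, 79.3% of fibroblasts and 34.9% of mural cells had a count of it. Meox1 reached it in 38.8% of fibroblasts and 1.42% of mural cells, although 49.01% of mural cells had at least 1 count. After the same thinning 50.8% of fibroblasts and 22.03% of mural cells had a count of Meox1. Mef2c reached 10 counts in 13.3% of fibroblasts and 49.01% of mural cells, and after thinning a count of it was in 21.1% and 63.4%. These shares pool strains that make up unequal parts of each side. By strain, Mef2c reached 10 counts in 6.36% to 24.2% of fibroblasts and 26.6% to 64.96% of mural cells, Tcf21 in 63.1% to 73.3% and 13.1% to 29.4%, and Meox1 in 27.5% to 65.8% and 0 to 5.88%.

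Cells pooled over strains held the following numbers of factors. The median number of the 10 factors with 10 counts or more was 3 per cell in clusters 1, 3 and 4, 2 in cluster 2 and 1 in cluster 5. Among mural cells it was 2 in cluster 6 and 1 in clusters 7 and 8. By strain, for strains with at least 3 cells of a cluster, the medians ran from 2 to 5 in cluster 1, from 2 to 3 in clusters 2 to 4, from 1 to 2 in clusters 5 and 7, from 2 to 4 in cluster 6 and from 0 to 1 in cluster 8, so several of these clusters overlapped. In cluster 8, 40.3% of cells had no factor at that level, against 1.43% in cluster 1. The clusters drew on the strains unequally, and the median number of detected genes per cell ran from 2782 in PdgfrbGFP to 6896 in Acta2GFP within cluster 8. By strain, the share of cells with no factor was 6.67% to 52.9% in cluster 8 and 0 to 4.55% in cluster 1. Within fibroblasts, Tcf21 reached 10 counts in 71.4% (Gata6) to 80.3% (Tbx18) of the cells that had 10 counts of another of the 7 tested factors, beside 70.5% of all fibroblasts, and these differences were not tested. Gata4 and Gata6 reached 10 counts together in 70 fibroblasts, which was 25.4% of the Gata4 cells and 38.5% of the Gata6 cells, beside 19.7% and 29.8% of all fibroblasts with Gata6 and Gata4. With each cell thinned to 50000 counts, the mean number of factors with a count was 3.78 per cell in cluster 1 and 1.88 in cluster 8. Within strains it was 3.30 and 2.36 in C57BL6, 2.67 and 1.71 in PdgfrbGFP, 3.16 and 1.61 in Cspg4dsRED, and 5.15 and 2.67 in Acta2GFP. Cells that lack a factor by this measure may have held transcript that was not captured.

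**Figure D4:**
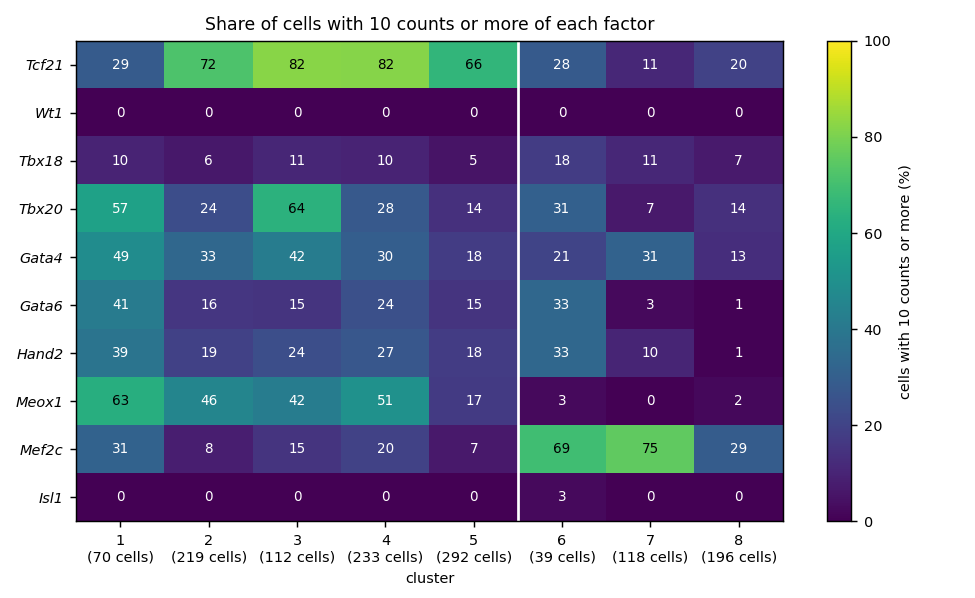
Percent of cells with 10 counts or more of each factor, by cluster, with the number of cells under each cluster and a white line between fibroblast and mural clusters. Tcf21 stood at 72% to 82% in clusters 2 to 4 and at 29% in cluster 1, and Meox1 at 3% or less in clusters 6 to 8. Gata6 and Hand2 stood at 33% in cluster 6, where 33 of 39 cells came from Cspg4dsRED. They stood at 3% and 10% in cluster 7 and at 1% in cluster 8.

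Cluster 1, which the authors took for likely valve interstitial cells, was compared with the other fibroblasts. Tcf21 was lower there in 4 of 4 strains, and Gata6 and Tbx20 were higher in 4 of 4. None of the 8 factors tested passed the edgeR test, which called 1.33% of all genes (0.561% higher and 0.773% lower). At an unadjusted p under 0.05, met by 8.87% of all genes, there were 4 (Tbx20, Meox1, Mef2c and Gata6), and DESeq2 called 1 (Tbx20, log2 fold change 2.13, adjusted p = 0.0268) and limma 0, where they called 5.22% and 2.36% of all genes. With the strain as a replicate block 0.742% of genes were called, and no factor was among them.

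Tcf21 was at 41.4 CPM in cluster 1 and 430 in clusters 2 to 5 of C57BL6, at 218.8 and 459 in PdgfrbGFP, at 0 and 342 in the 3 and 23 cells of Cspg4dsRED, and at 101.9 and 241.9 in Acta2GFP. The ranges did not overlap, which held in this direction for 6.69% of all genes tested, and the log2 fold change of -1.94 (SE 0.94) had an adjusted p of 0.612. Gata6 was at 132.3 and 76.3 CPM in C57BL6, 128.8 and 38.9 in PdgfrbGFP, 102.4 and 18.7 in Cspg4dsRED, and 85.5 and 44.6 in Acta2GFP. Its ranges did not overlap either, with cluster 1 above, as for 2.63% of all genes, at a log2 fold change of 1.35 (SE 0.52, adjusted p = 0.396).

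Tbx20 was at 309 and 145.2 CPM in C57BL6, 130.8 and 83.6 in PdgfrbGFP, 1352 and 186.6 in Cspg4dsRED, and 697 and 180.7 in Acta2GFP. All strains were higher in cluster 1, but its level in PdgfrbGFP lay below those of the other fibroblasts of 3 strains, and the log2 fold change was 2.01 (SE 0.56, adjusted p = 0.140). Meox1 was above 600 CPM in cluster 1 of C57BL6, PdgfrbGFP and Acta2GFP but at 245.6 CPM in the 3 cells of Cspg4dsRED, below the 303 CPM of the other fibroblasts there. Its log2 fold change was 1.26 (SE 0.40, adjusted p = 0.216). Mef2c was higher in 3 of 4 strains, at 1.94 (SE 0.70, adjusted p = 0.338). The summed cardiac muscle markers had a mean of 184.2 CPM in cluster 1 (38.3 to 352 over strains) and of 33.7 to 72.1 CPM in clusters 2 to 5. The summed general mural markers had a mean of 351 CPM in cluster 1 (125.5 to 729.8) and of 51.6 to 178.3 CPM in clusters 2 to 5. The part of either list in the levels of Mef2c, Tbx20 and Gata6 was not tested. Hand2 (0.97, SE 0.60, adjusted p = 0.807), Gata4 (0.48, SE 0.59, adjusted p = 0.984) and Tbx18 (-0.05, SE 1.43, adjusted p = 1.00) were not called, and the direction of Gata4 and Tbx18 turned under some settings. Of the 19 other cardiac factors tested, 1 was called: Tcf12, a partner of basic helix-loop-helix factors, was higher by 3.07 (SE 0.47, adjusted p = 0.00873), with 260, 300, 854 and 339 CPM in cluster 1 of C57BL6, PdgfrbGFP, Cspg4dsRED and Acta2GFP. Without C57BL6 its adjusted p was 0.0794 and without Acta2GFP 0.111, and it passed in the other 7 settings.

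Clusters 2 to 5 were compared in a single test over the 4 clusters. It called 0 of the 8 factors and 0.301% of all genes. Tbx20 and Meox1 had an unadjusted p under 0.05, as had 8.02% of all genes, and neither DESeq2 nor limma called a factor, where they called 2.72% and 0.511% of all genes. The span between the highest and the lowest cluster is positive by construction, with a median log2 value of 1.62 over all genes tested and 1.31 over the 8 factors. Tbx20 had the widest span of the factors, 2.42 on the log2 scale between the highest and the lowest fitted cluster (adjusted p = 0.473): cluster 3 had 386 ± 158.03 CPM (n = 3), while cluster 5 had 71.3 ± 34.8 (n = 2). Meox1 spanned 1.21 (adjusted p = 0.583), with 387 ± 27.99 CPM for cluster 4 against 154.05 ± 84.4 for cluster 5 (n = 2). Tcf21 spanned 0.64 (adjusted p = 1.00), with mean levels of 335 to 484 CPM in these clusters.

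Within the mural cells, cluster 8 (pericyte markers) was set against cluster 7 (smooth muscle markers) in PdgfrbGFP, Cspg4dsRED and Acta2GFP. The test called 0 of 8 factors and 0.194% of all genes (0.0843% higher and 0.11% lower), and 0.691% with the strain as a replicate block, again with no factor. At an unadjusted p under 0.05 there were 1 factor and 6.88% of all genes, and DESeq2 and limma called 0, where they called 3.2% and 0.379% of all genes. Mef2c was at 378, 266.4 and 51.5 CPM in cluster 8 and at 514, 510 and 624 CPM in cluster 7 of these strains. It was lower in cluster 8 without overlap, as for 5.89% of all genes tested, at a log2 fold change of -1.33 (SE 0.67, adjusted p = 0.785). The summed cardiac muscle markers were also lower there, at 160.3, 374 and 303.8 CPM in cluster 8 and 1904, 1365 and 1350.0 CPM in cluster 7. Much of the gap was Pln, at 32.3 CPM over all cells of cluster 8 and 1079.6 in cluster 7. Myl3 alone went the other way, at 45.3 and 32.6 CPM. The part of these markers in the Mef2c result was not tested. Tbx20 was at 22.06, 299.5 and 41.97 CPM in cluster 8 against 1.47, 22.05 and 15.2 CPM. The ranges met at 22.06 and 22.05 CPM without overlap, as for 9.09% of genes in this direction, with a log2 fold change of 3.18 (SE 1.42, adjusted p = 0.704). Tcf21 was higher in cluster 8 in 3 of 3 strains, at 69.3 to 228.5 CPM against 21.2 to 124.6 CPM. The summed fibroblast markers were higher there too, at 1370, 960 and 3334 CPM against 552, 309 and 777 CPM. Their part in these results was not tested. Gata6, Hand2 and Meox1 were low in both clusters, with means of at most 11.2 CPM.

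Cluster 6 was set against clusters 7 and 8 in the 3 strains that had it. The test called 0 of 8 factors and 0.033% of all genes, 4 in number. It called 0.883% with the strain as a replicate block, none of them a factor. Gata6 was the 1 factor with an unadjusted p under 0.05, met by 5.74% of all genes, and was called by DESeq2 (adjusted p = 0.00510) but not by limma, where these called 2.81% and 0.0413% of all genes. It was at 229.2 CPM in the 3 doubtful cells of C57BL6, 52.7 in Cspg4dsRED and 5.40 in Acta2GFP, against 2.76, 2.28 and 4.13 CPM in clusters 7 and 8. Its ranges did not overlap, with cluster 6 above, as for 3.26% of all genes, although the gap was small in Acta2GFP, and the log2 fold change was 4.93 (SE 1.79, adjusted p = 0.588). Without C57BL6 the log2 fold change was 3.25 (SE 1.87, adjusted p = 0.764).

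Mef2c was lower in cluster 6, at 0, 257.5 and 251.5 CPM in C57BL6, Cspg4dsRED and Acta2GFP against 483, 444 and 419 CPM. The ranges did not overlap, as for 14.4% of all genes, and the log2 fold change was -1.22 (SE 1.26, adjusted p = 0.994). The summed cardiac muscle markers of cluster 6 were at 5.88, 725 and 1525 CPM in these strains, beside 285.5, 374 and 304 CPM in cluster 8. In cluster 7 they were at 1365 and 1350.0 CPM in Cspg4dsRED and Acta2GFP. Over all cells of cluster 6, Tnnt2 (446 CPM) and Actc1 (266.1 CPM) led the list, with Tnni3 at 10.9 and Myh6 at 1.83. In cluster 7 Pln led it, at 1079.6 CPM. The part of these markers in the Mef2c result was not tested. Tcf21 was at 519, 48.1 and 292.03 CPM in cluster 6 and at 116.4, 34.2 and 104.5 CPM in the other mural cells, at 1.83 (SE 0.97, adjusted p = 0.992). Without C57BL6 the log2 fold changes were -0.60 for Mef2c and 1.52 for Tcf21. The summed fibroblast markers in cluster 6 were at 12491, 3223 and 3108 CPM in these strains. The part of these markers in the Tcf21 result was not tested.

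Wt1 and Isl1 were almost absent. Wt1, the factor that marks the epicardium, had 39 counts in 33 of the 1279 cells, 30 of them with 1 count, and its highest count was 4. No cell reached 10 counts, which allows a share of up to 0.235% of cells at that level, a limit that covers counting error only. The authors had removed cells that expressed neither Pdgfra nor Pdgfrb. The low counts of Wt1, Isl1 and the mesothelial markers therefore describe the cells kept and not the whole heart. Isl1, which marks the second heart field, had 98 counts in 2 cells with 92 and 6 counts. Both cells came from cluster 6 of Cspg4dsRED.

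Over the 8 clusters the order of levels was firm for few neighbours. For Meox1, ordered by mean level from cluster 1 through 4, 2, 3, 5 and 8 to 6 and 7, only clusters 4 and 2 and clusters 5 and 8 did not overlap among the 7 neighbouring pairs. For Mef2c only clusters 7 and 8, the highest of its order, did not. For the other 6 tested factors every neighbouring pair overlapped over strains.

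The genes most like each factor were sought over 27 sums of a strain and a cluster, among 11851 genes, by Pearson correlation of log2(CPM + 1). These sums share strains and libraries, and the values are descriptions. Meox1 was most like Tgfbi (0.96), Adamtsl2 (0.93) and Enc1 (0.93), and Tcf21 most like Gstm2 (0.88), Serping1 (0.84) and Cxcl1 (0.83). Gata6 was most like Tenm3 (0.90) and Abi3bp (0.89), and Abi3bp was also among the 3 most like Hand2 (0.89). Mef2c was most like Gm20708 (0.87), Fry (0.85) and Mgst3 (0.84). For Tbx20 the highest was Nde1 (0.80), for Gata4 Rab14 (0.81) and for Tbx18 Ankhd1 (0.76).

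The gene most like Hand2 was the identifier ENSMUSG00000100348 (0.99), which had no entry in GENCODE M21. It had 5185 counts in 309 cells, and all 309 also had a Hand2 count. On chromosome 8 of GRCm38, Hand2 (57320983 to 57324633, plus strand) is overlapped by the antisense transcript Hand2os1 (57281117 to 57324233), which had 9187 counts against 16898 for Hand2. Smart-seq2 does not mark the strand, so reads from the shared stretch cannot be told apart, and Hand2 levels are uncertain to that extent. Tbx18 (11808 counts) is overlapped by D030062O11Rik (911 counts), Gata6 (20380) by 1010001N08Rik (1482) and Meox1 (95014) by Gm11551 (1), each on the other strand. Tcf21 lies wholly within the span of Gm10824 (22815749 to 22823330), an antisense gene on the other strand. Gm10824 had no row in the count table, so its part in the Tcf21 counts could not be assessed. All these overlaps were taken from whole gene spans.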

How the data were processed

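The deposited values were unnormalized read counts for each gene in each cell. The authors made them by trimming with Trim Galore, mapping to GRCm38 (mm10) with TopHat2 and Bowtie or Bowtie2, a step described as doublet removal with samtools, and featureCounts. The strand setting and annotation release were not given in the sources used here. The authors had filtered cells for depth, spike-ins and other cell types. No further cells were removed and no doublet caller was run. ERCC spike-ins (92 rows, 1.82% of counts) were left out of library sizes.

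The 10 factors, the 25 other factors and the marker lists were chosen with earlier results of these data known. Named genes were the 10 factors, up to 3 called genes of the other list with the largest fold change per comparison and direction, and the 3 genes most like each factor. Meox2, Tbx3, Nr2f2 and Mef2a were named outside that rule, after their values were seen. Total counts per cell ran from 46268 to 1302397 (median 274504). For every comparison the counts of a strain's cells on one side were added up (3 cells or more) and tested with edgeR 4.0.16 (R 4.3.3) after TMM scaling and filterByExpr with a minimum count of 10, with Benjamini-Hochberg adjustment and a threshold of 0.05. The SE was the fold change over the root of F. Alternatives were DESeq2 size factors, DESeq2 1.42.0, no filter, the strain as a block, equal weight for each cell with log2(CPM + 1) in limma 3.58.1, leaving out each strain, and leaving out clusters 1 and 6. Leaving out cluster 6, its C57BL6 cells, or the C57BL6 plates without mural cells was chosen after seeing the data. Sums of a strain deviated together weakly, with correlations of 0.0215 to 0.193 between the sides of a strain and -0.151 to 0.146 between strains. The strain pairs the sums by design. Cell counts include no molecular identifiers, so limits cover counting error only. Gene positions and exon lengths came from GENCODE M21 on GRCm38. Promoter windows came from RefSeq.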

Additional observations from a re-analysis of the deposited data

Results flagged for a closer look

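Of 46 groups of 4 strains looked at for the factors, 1 held a strain far from the rest, and chance would flag about 1 in 20 such groups. Gata4 in cluster 8 was at 230 CPM in Cspg4dsRED, against 80.2 to 105.6 CPM in the other 3 strains. The gap to the nearest strain was 0.830 of the whole range of the group.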

How the results depend on the processing

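With other settings the factors gave 375 values, of which 348 kept their direction and their side of the threshold, 18 turned, 7 newly passed and 2 no longer passed. In fibroblasts against mural cells no factor turned. There the newly passing values were Tcf21 (1.74, limma), Gata6 (4.20 without clusters 1 and 6, 4.43 without cluster 6) and Hand2 (2.28 with DESeq2 and 2.72 with limma), and Meox1 no longer passed without PdgfrbGFP (4.90) or Acta2GFP (4.89). DESeq2 also called Tbx20 in cluster 1 and Gata6 in cluster 6. With C57BL6 from the plate with both sides, chosen after seeing the data, every factor kept its call. The cause was not tested.

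The percent of tested genes called was 5.93, 1.33, 0.301, 0.194 and 0.033 for fibroblasts against mural cells, cluster 1, clusters 2 to 5, cluster 8 against 7 and cluster 6. DESeq2 called 12.7%, 5.22%, 2.72%, 3.2% and 2.81%. Limma called 9.22%, 2.36%, 0.511% and 0.379% in the first 4. Without a filter, with more genes tested, 0.284% were called among clusters 2 to 5 (77 genes against 50), 0.855% for cluster 8 and 0.418% for cluster 6. DESeq2 size factors gave 0.379% for cluster 8, and moved the median log2 of all genes from 0.18 to 0.04 there and from -0.32 to -0.17 for cluster 6. With the strain as a replicate block 0.742% were called for cluster 1, 0.691% for cluster 8 and 0.883% for cluster 6, and the block changed no call of a factor.

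Leaving out 1 strain in turn, which left fewer sums, gave 2.66% (without PdgfrbGFP) to 3.91% (without Cspg4dsRED) between both sides, 0.201% (without Acta2GFP) to 0.748% (without Cspg4dsRED) for cluster 1, 0 (without PdgfrbGFP) to 0.133% (without Cspg4dsRED) among clusters 2 to 5, 0 (without PdgfrbGFP) to 0.987% (without Acta2GFP) for cluster 8 and 0 (without Cspg4dsRED) to 0.495% (without Acta2GFP) for cluster 6. Gata6 in cluster 8 gave no value without Acta2GFP.

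For cluster 1, Gata4 turned to -0.15 with limma, and ran from -0.26 (without Acta2GFP) to 0.84 with a strain left out. Tbx18 ran from -1.50 (without PdgfrbGFP) to 0.41, and turned without each other strain. For cluster 8, Meox1 turned to -0.10 with DESeq2 size factors and with DESeq2, and Gata4 to -0.018 without a filter. With a strain left out, Gata4 ran from -0.28 (without PdgfrbGFP) to 0.57, Tbx18 from -0.079 (without Cspg4dsRED) to 2.46 and Hand2 from -4.58 to 0.56 (without Cspg4dsRED). For cluster 6, Gata4 turned to -0.12 without a filter, -0.18 with the replicate block and -0.35 with limma. With a strain left out it ran from -0.49 (without Acta2GFP) to 0.81, turning also without C57BL6 (-0.44), Tbx20 from -2.09 to 0.80 and Meox1 from -2.68 to 0.64 (both highest without C57BL6). None of the factors that turned was called in that comparison in any setting run. At most 4 strains a side limit every comparison.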
